A study of Rattus norvegicus with 6 samples.

Results

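The 8 genes described here belong to the cholesterol synthesis pathway and its control, namely Hmgcs1, Idi1, Fdps, Fdft1, Sqle, Cyp51, Srebf2 and Insig1. They were taken by name from the 32883 genes of the matrices, each symbol occurring once, and their levels were followed in islet, acinar, ductal, fibroblast, macrophage and lymphoid cells of each rat. None of the 8 encodes a receptor for low-density lipoprotein. Single-cell RNA sequencing was done on pancreatic cells of 6 male Wistar rats, 2 per group, on normal or high-fat high-fructose (HFHF) feeding. Young rats were 2 months old and had received a normal diet, old rats were kept on the normal diet from 2 to 20 months of age, and HFHF-old rats received the HFHF diet over the same 18 months. The cells came from a collagenase P digest from which the islets were enriched on a density gradient, so other cell types were present only as far as they came along with that fraction. The study's HFHF chow also held added cholesterol, with fructose in the drinking water. Members were therefore compared between HFHF-old and old rats for the diet and between old and young rats for age.

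Cholesterol is made from acetyl-CoA through mevalonate, isoprenoid diphosphates, squalene and lanosterol. The transcription factor SREBP-2, encoded by Srebf2, switches on most genes of the pathway when the membrane of the endoplasmic reticulum is low in sterol. INSIG-1, encoded by Insig1, holds the SREBP escort protein SCAP in that membrane when sterol is plentiful, and Insig1 is itself a target of SREBP. In the order of the pathway, Hmgcs1 encodes cytosolic HMG-CoA synthase, Idi1 isopentenyl diphosphate isomerase, Fdps farnesyl diphosphate synthase, Fdft1 squalene synthase, Sqle squalene epoxidase and Cyp51 lanosterol 14-alpha-demethylase. In beta cells the cholesterol content of membranes and granules is known to bear on insulin secretion, and macrophages are known for taking up and storing cholesterol.

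Sterol-responsive promoters commonly carry CCAAT boxes, which bind NF-Y, beside sites for SREBP. RefSeq promoters of the build GRCr8, 300 bases from 250 before the transcription start to 50 after it, were held for 6 of the 8 genes, namely Hmgcs1, Insig1, Idi1, Fdps, Srebf2 and Cyp51. The counts themselves were made on Rnor_6.0. The letters CCAAT, searched on both strands, occurred in 5 of these 6 promoters, against 37.5% of all 33469 RefSeq promoters of that length. Hmgcs1, Idi1 and Fdps each held 2 matches and are printed here, because 3 enzymes of the pathway then show the same element in short windows. The capitals mark CCAAT or its complement ATTGG. The windows are chr2:53382054-53382353 on the + strand for Hmgcs1, chr17:66547475-66547774 on the - strand for Idi1 and chr2:176804767-176805066 on the - strand for Fdps.
Hmgcs1: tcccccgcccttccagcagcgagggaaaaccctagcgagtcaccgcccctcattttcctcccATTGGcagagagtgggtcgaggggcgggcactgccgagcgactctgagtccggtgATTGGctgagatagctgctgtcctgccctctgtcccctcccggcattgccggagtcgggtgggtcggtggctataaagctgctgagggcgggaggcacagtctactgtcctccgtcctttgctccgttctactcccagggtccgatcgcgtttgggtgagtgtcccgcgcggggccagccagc
Idi1: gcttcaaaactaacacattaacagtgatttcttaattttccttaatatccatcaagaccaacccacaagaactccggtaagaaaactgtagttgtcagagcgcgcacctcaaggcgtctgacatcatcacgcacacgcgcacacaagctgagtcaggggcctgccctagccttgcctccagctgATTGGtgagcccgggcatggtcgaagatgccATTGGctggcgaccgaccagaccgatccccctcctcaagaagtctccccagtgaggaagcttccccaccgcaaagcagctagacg
Fdps: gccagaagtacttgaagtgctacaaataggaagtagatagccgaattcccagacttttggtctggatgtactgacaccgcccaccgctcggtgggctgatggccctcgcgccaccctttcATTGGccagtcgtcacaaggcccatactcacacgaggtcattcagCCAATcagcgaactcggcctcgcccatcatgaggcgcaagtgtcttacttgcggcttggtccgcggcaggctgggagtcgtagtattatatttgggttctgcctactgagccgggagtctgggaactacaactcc
Counted from the transcription start, the matches began at -188 and -133 in Hmgcs1, at -66 and -35 in Idi1 and at -130 and -85 in Fdps. Srebf2 had 1 match at -129, Insig1 had 1 at -193, and Cyp51 had none. The GC box GGGCGG, likewise on both strands, occurred in 5 of the 6, all but Idi1, and in 33.1% of all promoters. The sterol regulatory element written as TCACNCCAC occurred in none of the 6 and in 1.12% of all promoters, which says only that these letters are not in the windows.

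The 6 libraries held between 77387928 and 166875258 UMIs (unique molecular identifiers, each counting 1 captured transcript), and 75201 of 78024 barcodes were kept as cells. Of the different barcodes among the kept cells, 584, or 0.783%, occurred in more than 1 library. Classes were named from marker genes, and the 8 genes took no part in the clustering. Islet markers made up 413748 to 627315 and acinar markers 444296 to 606569 of each 1000000 UMIs in their own classes. HFHF-old rat 2 stood apart from the other rats. It gave only 11 islet, 54 acinar, 2 ductal and 50 macrophage cells, while 8208 of its 10019 lymphoid cells were NK-like. Its ductal cells were left out, so the ductal HFHF-old value rests on the 20 cells of rat 1. Levels are given as CPM, the UMIs of a gene scaled to a total of 1000000 UMIs in a class of a rat, and are shown for each gene in the plot of levels by class and rat. A difference is called where the adjusted p of edgeR's quasi-likelihood test was under 0.05 and the fold change over 1.5 in either direction, in a fit over all genes of the class.

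**Figure D1:**
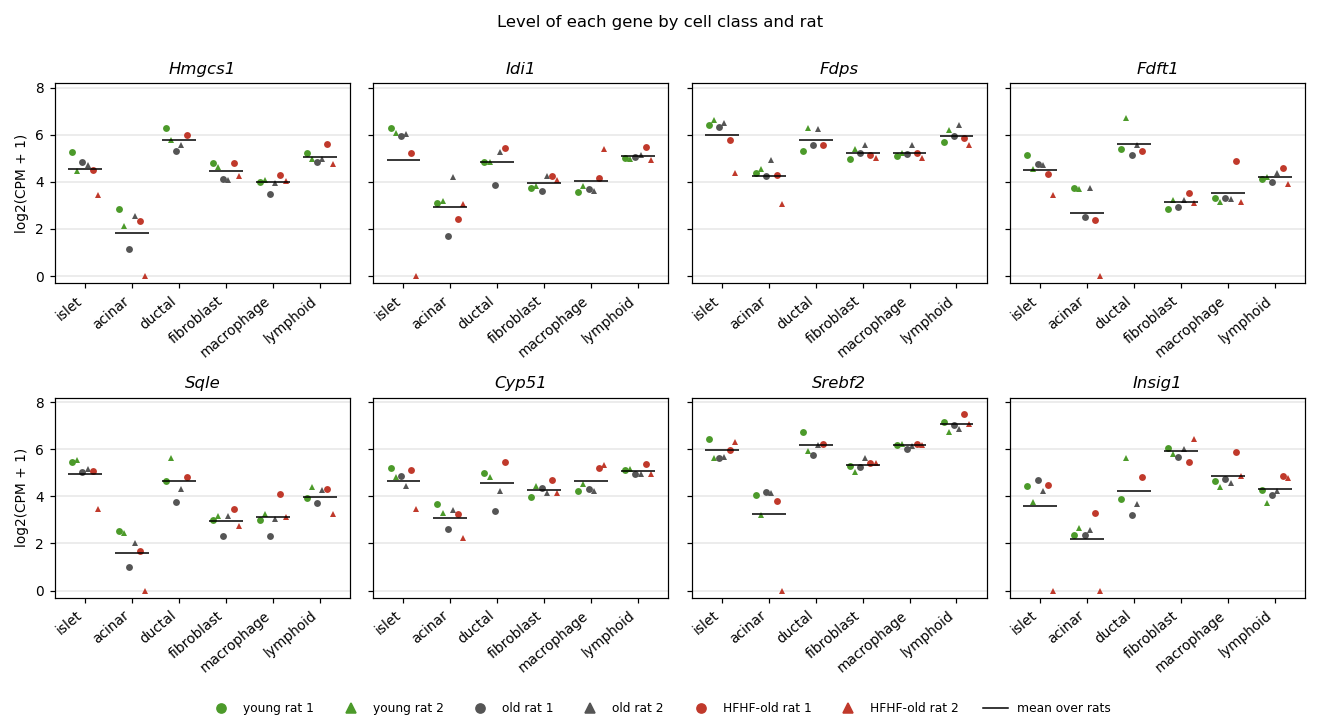
Level of each of the 8 genes on the scale log2(CPM + 1), by cell class on the horizontal axis. Each point is the sum over the cells of 1 rat, coloured by group, and the black line is the mean over rats. With all genes in the totals, acinar cells have the lowest mean for every gene, and the highest mean lies in lymphoid cells for Srebf2 and in fibroblasts for Insig1. HFHF-old rat 2 is at 0 UMIs in islet cells for Idi1 and Insig1 and in acinar cells for Hmgcs1, Sqle, Insig1, Fdft1 and Srebf2.

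With all genes in the totals, the controlling genes had separate distributions over the cell classes. Srebf2 was highest in lymphoid cells, at 134 ± 26.2 CPM (mean ± SD, n = 6 rats), and higher there than in ductal cells in 5 of 5 rats, by 0.88 ± 0.37 on the log2 scale. Ductal cells at 73.1 ± 20.0 (n = 5), macrophages at 71.1 ± 3.75 and islet cells at 62.6 ± 16.4 followed, and these neighbours did not differ beyond the spread of the paired differences. Between classes or cell types, beyond the spread means a mean paired log2 difference larger than its SD over rats, which is not a test. Srebf2 in fibroblasts, 39.8 ± 5.63, was below islet cells in 6 of 6 rats, and acinar cells had 11.8 ± 6.64. Insig1 had another order, with fibroblasts at 60.6 ± 14.6 CPM above macrophages at 29.9 ± 14.1 in 5 of 6 rats. The fibroblast values of Insig1 were 65.2 and 55.4 in young, 50.3 and 64.0 in old and 43.6 and 85.3 in HFHF-old rats, so the groups overlapped. Insig1 in lymphoid cells, 19.7 ± 6.1, was below macrophages in 6 of 6 rats, and it did not differ beyond the spread from ductal cells at 22.1 ± 16.9 or ductal from islet cells at 16.2 ± 8.95. The lowest level of Insig1 was again in acinar cells, 4.56 ± 2.83. Acinar means here and below include HFHF-old rat 2, whose 0 UMIs for Srebf2, Insig1, Hmgcs1, Fdft1 and Sqle allow up to 11.1 CPM.

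On the same totals, the enzymes of the early and middle steps had their highest mean CPM in ductal or islet cells. Hmgcs1, the first enzyme after the thiolase step, was highest in ductal cells at 56.0 ± 15.2 CPM, above lymphoid cells at 33.3 ± 8.35 in 5 of 5 rats. Lymphoid and islet cells, the latter at 23.9 ± 9.06, did not differ beyond the spread, nor did islet cells and fibroblasts at 21.3 ± 5.16, macrophages at 15 ± 2.79 lay below fibroblasts in 6 of 6 rats, and acinar cells had 3.28 ± 2.31. Fdft1, which joins farnesyl units into squalene, was likewise highest in ductal cells, at 53.1 ± 28.9, above islet cells at 22.9 ± 8.12 in 5 of 5 rats. Lymphoid cells had 17.7 ± 3.42, macrophages 11.9 ± 8.39, fibroblasts 7.87 ± 1.52 and acinar cells 7.58 ± 5.33 for Fdft1, and of these steps only that from lymphoid cells to macrophages exceeded the spread. Ductal levels rest on few cells, and their highest Fdft1 value, 104 CPM, came from the 16 ductal cells of young rat 2. With doublets left out the young rats kept 30 of 59 and 4 of 16 ductal cells. Old rats then kept 75 of 87 and 209 of 235, and HFHF-old rat 1 kept 18 of 20. Fibroblast markers in ductal cells summed to 4411 and 6752 CPM in young, 577 and 259 in old rats and 1832 in HFHF-old rat 1. Fdps, which makes farnesyl diphosphate, was highest in islet cells at 70.9 ± 29.4 and lymphoid cells at 61.9 ± 14.0, which did not differ beyond the spread. Ductal cells had 56.8 ± 18.0, fibroblasts 36.7 ± 6.06, macrophages 36.4 ± 5.06 and acinar cells 19.4 ± 7.25 for Fdps, with fibroblasts and macrophages again within the spread of each other. For Idi1, the mean was 50.8 ± 28.4 in islet, 33.5 ± 5.17 in lymphoid, 29.9 ± 11.4 in ductal, 17.6 ± 12 in macrophage, 14.7 ± 3.02 in fibroblast and 7.80 ± 5.17 acinar cells. On the log2 scale the mean of Idi1 was highest in lymphoid cells, at 5.10 against 4.93 in islet cells, but lymphoid cells were higher in only 2 of 6 rats. HFHF-old rat 2 entered the islet mean at 0, where 0 UMIs in 11 islet cells allow up to 29.7 CPM. With that rat included, the islet and lymphoid levels of Idi1 did not differ beyond the spread (0.17 ± 2.40). Neither did those of macrophages and fibroblasts. Fdps and Idi1 have processed pseudogenes in the rat genome, so reads of near-identical copies may have been divided or dropped in the counting.

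For Sqle, which adds the epoxide oxygen to squalene, the order of means was islet, ductal, lymphoid, macrophage, fibroblast and acinar, with 33.0 ± 12.7, 26.4 ± 14.0, 15.4 ± 4.5, 8.43 ± 4.06, 7.10 ± 2.10 and 2.59 ± 1.9 CPM. Islet cells exceeded ductal cells in 4 of 5 rats by 0.62 ± 0.55 on the log2 scale. Ductal cells lay above lymphoid cells in 5 of 5 rats, by 0.52 ± 0.52, and macrophages above fibroblasts in 4 of 6, neither beyond the spread. Cyp51, which demethylates lanosterol, had similar means in most classes, at 33.1 ± 4.05 in lymphoid, 25.9 ± 9.56 in islet, 25.6 ± 12.8 in ductal, 25.3 ± 9.47 in macrophage and 18.9 ± 3.68 in fibroblast cells. None of these neighbours in the order of Cyp51 differed beyond the spread, and only acinar cells at 7.96 ± 2.99 stood apart, below fibroblasts in 6 of 6 rats.

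These levels share their total with the secreted products of islet and acinar cells. With 7 hormone genes and the acinar markers left out of the totals, a setting chosen after the data were seen, the sum of the 8 genes in islet cells moved from 306 to 666 CPM on average and was above lymphoid cells in 5 of 6 rats. The acinar sum moved from 65.0 to 139 and stayed below fibroblasts in 6 of 6 rats, but by a mean of 0.76 on the log2 scale with an SD of 0.95. The orders of single genes given above also changed with this total. Acinar cells then had a higher mean log2 level than fibroblasts for Fdft1 (0.39 ± 1.83, higher in 5 of 6 rats) and a higher one than macrophages for Fdps (0.05 ± 0.59, higher in 5 of 6 rats), and for Cyp51 they lay below fibroblasts by 0.23 ± 0.63 in 4 of 6 rats, none of these beyond the spread. The lead of ductal over islet cells was lost, at -0.15 ± 0.77 for Fdft1 with ductal cells higher in 1 of 5 rats and -0.05 ± 0.56 for Hmgcs1 with 3 of 5. Srebf2 no longer differed beyond the spread between lymphoid and islet cells, at 0.02 ± 0.28 with lymphoid cells higher in 3 of 6 rats. Islet cells then exceeded lymphoid cells in Cyp51 by 0.63 ± 0.60 and in Fdps by 1.14 ± 0.70, each in 5 of 6 rats. Insig1 kept fibroblasts above macrophages in 5 of 6 rats, by 1.05 ± 0.74.

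Within islet cells the 8 genes were compared between hormone types, taken from the most abundant hormone transcript. All 8 were higher in alpha cells than in beta cells in each of the 5 rats with at least 10 cells of both types, HFHF-old rat 2 having too few. The types differed in depth. Median UMIs a cell in beta cells were 1584.5 and 845 in young and 2782 and 1997 in old rats. In alpha cells they were 11561 and 11466 in young and 23449 and 9238 in old rats. HFHF-old rat 1 had 33116.5 in beta and 19013.5 in alpha cells, and the part of depth was not tested. The sum of the 8 genes was 579 and 524 CPM in the alpha cells of the young rats, 562 and 689 in old rats and 686 in HFHF-old rat 1. In beta cells the corresponding sums were 172 and 146, 181 and 160, and 226. On the log2 scale alpha exceeded beta cells by 1.78 ± 0.20 for the sum, and by 2.42 ± 0.31 for Idi1, 2.39 ± 0.55 for Hmgcs1 and 1.35 ± 0.30 for Cyp51. PP cells lay between, at sums of 457 and 441 in young, 400 and 496 in old and 460 in HFHF-old rat 1. Delta cells reached 10 cells only in the young rats, where 24 and 11 cells gave sums of 213 and 297. Hormone transcripts take up much of a beta cell's total. With them left out, the difference between alpha and beta cells was 0.75 ± 0.34 for the sum and kept its sign in 5 of 5 rats. It remained 1.45 ± 0.59 for Hmgcs1 and 1.41 ± 0.42 for Idi1, the 2 genes for which it was largest, but was 0.36 ± 0.32 for Srebf2 and 0.35 ± 0.40 for Cyp51, each higher in alpha cells in 4 of 5 rats. The difference between PP and beta cells then came to 0.33 ± 0.35 for the sum, which was within the spread.

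**Figure D2:**
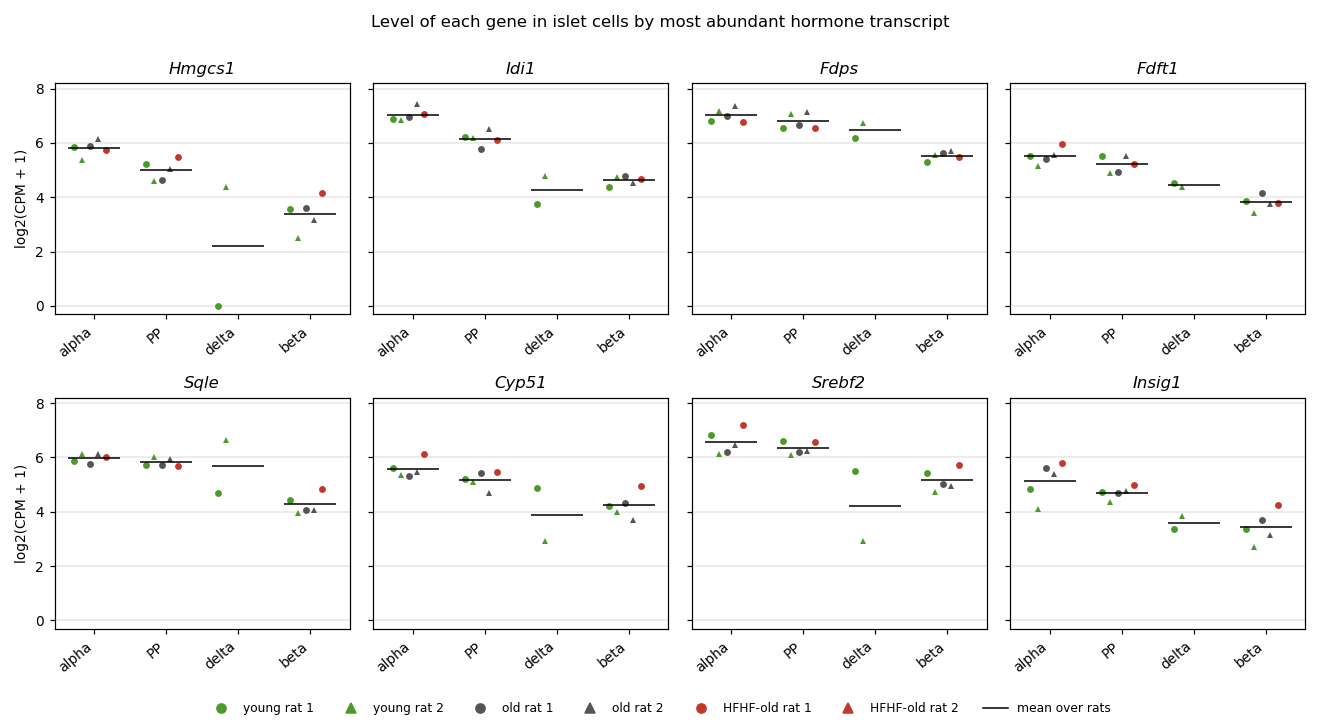
Level of each gene in islet cells, on the scale log2(CPM + 1), with cells divided by their most abundant hormone transcript into alpha (Gcg), PP (Ppy and Pyy), delta (Sst) and beta (Ins1 and Ins2) types. Each point is 1 rat with at least 10 cells of the type and the black line is the mean, and alpha cells lie above beta cells in 5 of 5 rats for every gene. In young and old rats the median beta cell held fewer UMIs than the median alpha cell.

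Between HFHF-old and old rats none of the 8 genes was called in islet cells, where 0.0313% of all 12798 genes tested were called. All 8 fitted log2 fold changes were nonetheless below 0, with a median of -0.85 against -0.01 over all genes, and 4 had an unadjusted p under 0.05, as had 1047 of the 12798 genes. Idi1 had 60.1 and 65.6 CPM in the islet cells of old rats and 36 and 0 in HFHF-old rats. The 0 stands for no UMI among 101005, which allows a level of up to 29.7 CPM, and both HFHF-old values lay below both old values. Its log2 fold change was -1.65 ± 0.51 (SE) with an adjusted p of 0.468 in edgeR. Without young rat 1 or young rat 2 in the fit, which leaves 1 young rat, Idi1 was called, with changes of -1.61 and -1.63. Without young rat 2 the calls over all genes were also the most of any alternative for this comparison. Fdps, the next enzyme, had 78.5 and 90.0 in old and 53.3 and 19.8 in HFHF-old rats, and the groups did not overlap. The fitted change was -1.47 ± 0.48, with an adjusted p of 0.51 in edgeR. Fdft1 had 26.1 and 25.3 in old against 19.1 and 9.90 in HFHF-old rats, and Hmgcs1 had 27.5 and 25.1 against 21.9 and 9.90. These 2 genes did not overlap between the groups either, but each 9.90 stands for 1 UMI in HFHF-old rat 2, where even a count of 0 allows 29.7 CPM, so that its place below the old rats is not resolved at this depth. Their log2 fold changes were -1.07 ± 0.40 and -0.92 ± 0.40.

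The other members overlapped or went the opposite way on the unscaled level. Sqle had 31.4 and 35.1 CPM in old and 32.7 and 9.90 in HFHF-old rats, Cyp51 had 27.8 and 20.7 against 33.9 and 9.90, and Insig1 had 24.6 and 17.9 against 21.4 and 0. Their fitted log2 fold changes were -0.77 ± 0.44, -0.23 ± 0.40 and -0.70 ± 0.45. Srebf2 had 49.3 and 49.6 in old and 62.2 and 79.2 in HFHF-old rats, so that both HFHF-old rats were higher in CPM, while the fit, which scales libraries by TMM factors, gave -0.18 ± 0.40. Scaling by library size alone shifted the median of all genes in this comparison to 0.54 and turned Srebf2 to 0.45 and Cyp51 to 0.27 on the log2 scale. Of the 8 genes, 4 had each HFHF-old rat below each old rat, against 9.4% of the 5106 genes at or above the level of the lowest member. Srebf2 was the 1 member with each HFHF-old rat above each old rat, against 45.5% of these genes. Both counts rest on the few UMIs of HFHF-old rat 2 as well.

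The islet cells of the groups differed in make-up and number. Beta cells gave 56.9% and 61.6% of islet UMIs in old rats and 81.5% and 82.2% in HFHF-old rats, and alpha cells, in which the members were higher, gave 31.8% and 21.4% against 6.32% and 17.8%. HFHF-old rat 2 held 14 UMIs of all 8 genes together in islet cells. Without this rat the members' median change was -0.66 and all 8 stayed below 0, and without HFHF-old rat 1 it was -2.40, which includes the fitted values of Idi1 and Insig1 with no UMI left in the group and is no bound. Acinar markers summed to 4839 and 3157 CPM in the islet cells of old rats and 15163 and 18375 in HFHF-old rats, with all 14 of 14 markers above 0 in every rat, and dissociation response genes to 2078 and 1788 in old and 2974 and 4861 in HFHF-old rats. The islet cells also came from different clusters, since HFHF-old rat 1 had 159 of its 301 in one led by Pclo and Slc2a2, where the old rats had 21 of 423 and 15 of 2110, and its beta cells had a median of 33116.5 UMIs against 2782 and 1997 in old rats. The part of these differences in the lower islet values was not tested. Within hormone types HFHF-old rat 1 was above both old rats in beta cells and between them in alpha and PP cells. In beta cells its sum of the 8 genes was 226 against 181 and 160, in alpha cells 686 against 562 and 689, and in PP cells 460 against 400 and 496. With hormone and acinar genes out of the totals the beta sum was 527 against 665 and 570, the alpha sum 960 against 1019 and 1304 and the PP sum 682 against 616 and 960. The direction within beta and alpha cells thus depended on the total used, and no test was run within types.

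In macrophages most fitted changes in the same comparison were positive, again without a call. None of the 8 genes and 0% of 12856 genes tested were called by edgeR, where 822 genes had an unadjusted p under 0.05, while DESeq2 called 21 genes and none of the members. The median log2 fold change of the members was 0.84 against 0.00 over all genes, 6 of 8 were positive, and 3 had an unadjusted p under 0.05. Cyp51 had 19.0 and 18.0 CPM in old rats and 35.6 and 39.0 in HFHF-old rats, with 18.0 and 22.2 in young rats. Both HFHF-old rats lay above both old rats, as they did for 23.3% of the genes at or above the level of the lowest member. The value of HFHF-old rat 2 stands for 15 UMIs. The fitted change of Cyp51 was 0.83 ± 0.23 and its adjusted p was 0.761 in edgeR. Idi1 had 11.9 and 11.1 in old and 17.0 and 41.6 in HFHF-old rats, with a change of 0.89 ± 0.40. Insig1 had 25.8 and 22.6 against 58.0 and 28.6, and Sqle had 3.99 and 7.30 against 16.1 and 7.80. Their changes of 0.85 ± 0.34 and 1.17 ± 0.49 were carried by HFHF-old rat 1, whereas rat 2 lay just above the higher old rat. Fdft1 had 8.99 and 8.76 in old rats and 29.0 and 7.80 in HFHF-old rats, so that the groups overlapped and the largest member change, 1.23 ± 0.46, came from rat 1. Hmgcs1 had 10.1 and 14.5 against 18.6 and 15.6, with a change of 0.40 ± 0.32.

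The 2 exceptions in macrophages were Fdps and Srebf2. Fdps had 35.7 and 45.8 CPM in old and 36.7 and 31.2 in HFHF-old rats, which overlapped, with a change of -0.38 ± 0.27. Srebf2 had 64.4 and 69.8 against 73.6 and 72.8, a difference in CPM that the scaled fit gave as -0.05 ± 0.22. In all, 6 of the 8 genes had each HFHF-old rat above each old rat in CPM, against 23.3% of the 8556 genes at or above the level of the lowest member. For Sqle, Hmgcs1, Insig1 and Srebf2 the value of HFHF-old rat 2 stands for 3, 6, 11 and 28 UMIs, where even a count of 0 allows 7.8 CPM, and its place just above the old rats is not resolved at this depth. The sum of the 8 genes was 188 and 199 in young, 180 and 198 in old and 285 and 244 in HFHF-old rats. HFHF-old rat 2 contributed 94 UMIs of the 8 genes from 50 cells and rat 1 contributed 12831 from 3841 cells. Without HFHF-old rat 1 the members' median change was -0.01, and Fdft1 and Insig1 turned to -0.49 and -0.06. The macrophages of the rats also came from different clusters. HFHF-old rat 1 had 2485 of its 3841 macrophages in the cluster led by Stab1, Cd163 and Lyve1, and HFHF-old rat 2 had 42 of 50 in the one led by Olr1, Clec7a and Lyz2. Old rat 1 had 572 of 1555 in the first and 768 in the second, and old rat 2 had 522 and 640 of 2481, with 689 more in a cluster led by Ccl24 and 601 in one led by Ch25h. The 12 macrophage markers summed to 15340 and 19638 CPM in old and 21222 and 7743 in HFHF-old rats. Genes of the dissociation response summed to 6980 and 6958 CPM in the macrophages of old rats and 10875 and 8107 in HFHF-old rats, with 10 of 11 genes above 0 in every rat, and the part of these differences in the result was not tested.

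In lymphoid cells no member was called, for the class as a whole or for the T-like and NK-like cells within it. Insig1 was higher in both HFHF-old rats than in both old rats in each of these. In the class as a whole 2 of the 8 members, Insig1 and Srebf2, lay so, against 42.1% of the 7167 genes at or above the level of the lowest member. Fdps was lower in both HFHF-old rats, as were 22.7% of those genes. None of the 8 genes and 0% of 13379 genes were called by edgeR in HFHF-old against old rats, where 1657 genes and none of the members had an unadjusted p under 0.05, and DESeq2 called 146 genes and none of the members. The median change of the members was 0.05, with 4 of 8 positive, and it was -0.04 without old rat 1 and -0.19 without HFHF-old rat 1. Insig1 had the smallest p, with 15.7 and 17.8 CPM in old and 27.8 and 26.2 in HFHF-old rats, a log2 fold change of 0.57 ± 0.25 and an adjusted p of 0.404 in edgeR. The class mixes T-like, NK-like and B-like cells, and the NK-like share was far higher in HFHF-old rat 2. In T-like cells alone Insig1 had 14.8 and 16.1 in old, 40.2 and 33.9 in HFHF-old and 13.2 and 11.6 in young rats, and its change against old rats was 1.08 ± 0.22 (adjusted p = 0.393 in edgeR). In NK-like cells alone it had 10.6 and 11.6 in old, 19.5 and 24.1 in HFHF-old and 10.3 and 10.5 in young rats, with a change of 0.86 ± 0.25 (adjusted p = 0.361 in edgeR). Both HFHF-old rats were thus above both old rats in either type, as were 40.7% of the genes compared in T-like and 35.8% in NK-like cells. None of the 8 members was called in either type, and of all genes 0% of 11284 were called by edgeR in T-like and 0% of 11339 in NK-like cells, where 1423 and 1519 genes had an unadjusted p under 0.05. Each HFHF-old rat was above each old rat for 5 of the 8 members in T-like cells, against 40.7% of the 6800 genes at or above the level of the lowest member, and for 7 of 8 in NK-like cells, against 35.8% of 8358 genes. The cells compared came from different clusters. Of the T-like cells, 388 of 493 and 1465 of 1607 in HFHF-old rats lay in the cluster led by Themis and Cd8b, with a median of 6914 UMIs a cell, against 578 of 774 and 551 of 1877 in old rats, and 1326 of those of old rat 2 lay in one led by Cd3d, with a median of 2930. Of the NK-like cells, HFHF-old rat 1 had 747 of 772 in the cluster led by Gzmbl3 and Prf1, whereas HFHF-old rat 2 had 424 of 8208 there, 4704 in the one led by Gzma and Gzmk and 3080 in the one led by Klrh1. Old rats had 437 of 600 and 587 of 899 in the first of these, 147 and 298 in the second and 16 and 14 in the third. The sum of the 8 genes showed the same order, with 322 and 325 in old and 470 and 390 in HFHF-old T-like cells, and 249 and 229 against 382 and 295 in NK-like cells. In T-like and in NK-like cells 7 of 8 members had a positive change, with medians of 0.34 and 0.42 against 0.01 over all genes in each, and the exception was Fdps at -0.50 ± 0.22 and -0.34 ± 0.28. Dissociation response genes in lymphoid cells summed to 4408 and 2945 in old and 5807 and 4583 in HFHF-old rats, and the part of these differences was not tested.

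**Figure D3:**
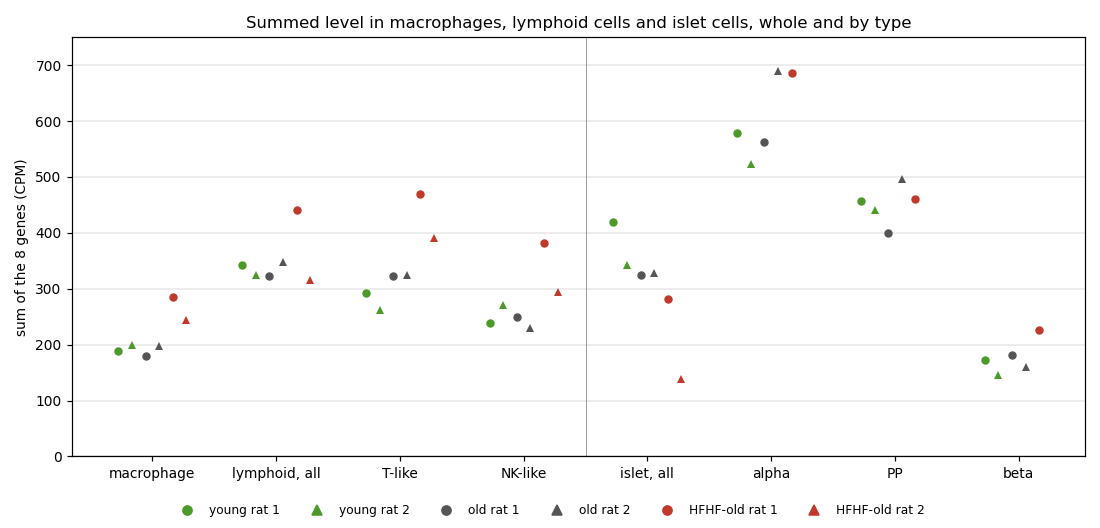
Sum of the 8 genes in CPM on a linear axis from 0, for macrophages, all lymphoid cells, T-like and NK-like cells on the left and all islet cells, alpha, PP and beta cells on the right. Each point is 1 rat, and HFHF-old rats lie above old rats in macrophages, T-like and NK-like cells and below them in all islet cells, where HFHF-old rat 2 is at 139.

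The remaining classes gave smaller or less certain values for HFHF-old against old rats. In fibroblasts none of the 8 genes and 0% of 13843 genes were called by edgeR, where 834 genes had an unadjusted p under 0.05, while DESeq2 called 111 genes and no member. The members' median change in fibroblasts was 0.20 with 6 of 8 positive, and it was -0.06 without old rat 1 and -0.08 without HFHF-old rat 1. Fibroblasts of the cluster led by Gfpt2 and Has1 made up 1311 of 2915 in HFHF-old rat 1 and 171 of 1027 in rat 2, against 161 of 1292 and 31 of 1287 in old rats, and their part in these values was not tested. Hmgcs1 had the smallest p there, at 16.4 and 15.7 CPM in old and 27.1 and 18.3 in HFHF-old rats, with a change of 0.50 ± 0.28 and an adjusted p of 0.867 in edgeR. It was the 1 member of 8 with each HFHF-old rat above each old rat, against 18.6% of 9666 genes in fibroblasts. In acinar cells none of the 8 and 0.0542% of 7380 genes were called, and the members' median was -0.35 with 2 of 8 positive, but 0.40 without old rat 2. Islet markers, of cells in which the members were higher, summed to 95353 and 43593 CPM in the acinar cells of old rats and to 16997 and 22.2 in HFHF-old rats, with only 2 of 15 markers above 0 in every rat. HFHF-old rat 1 had 795 and 648 of its 1909 acinar cells in 2 clusters with medians of 649 and 791 UMIs a cell, the first led also by Vsig4, Gpnmb and Pf4, in which the old rats had 17 and 33 and 0 and 4 cells, and old rat 1 had 417 and 250 of its 779 in 2 others. Macrophage markers summed to 1499 and 646 CPM in the acinar cells of old rats and to 1709 and 0 in HFHF-old rats. The part of these differences in the acinar values was not tested. Fdft1 had 4.69 and 12.3 in the acinar cells of old rats and 4.15 and 0 in HFHF-old rats, where 0 of 270380 UMIs allows up to 11.1 CPM. Its change was -1.26 ± 0.61 (adjusted p = 0.835 in edgeR), and HFHF-old rat 2 held only 5 UMIs of the 8 genes in acinar cells. In ductal cells none of the 8 and 0.4% of 10003 genes were called, with a members' median of 0.53 and 6 of 8 positive. This median was 0.20 without old rat 1, 0.88 without old rat 2 and 1.22 with clustering at resolution 2. Acinar markers summed to 5441 and 3419 CPM in the ductal cells of old rats and 12509 in HFHF-old rat 1, with 14 of 14 above 0 in every rat, and dissociation response genes to 11429 and 10964 against 16096, and their part was not tested. Cyp51 had 9.32 and 17.9 in old rats and 42.9 in the single HFHF-old rat, a change of 1.52 ± 0.62 with an adjusted p of 0.578 in edgeR, for which the lone rat was assumed to vary like the others.

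The difference of the diet comparison between classes was tested directly in 1 fit over all class and rat sums, with a term for each rat and for each class. No member passed an adjusted p of 0.05, and 0.077% of 16894 genes did. Fdft1 and Sqle came closest, with adjusted p-values of 0.128 and 0.129 in edgeR. They were also the members with the largest positive change in macrophages, while in islet cells their changes were negative. In the plot of fitted changes 6 of the 8 members lie below 0 in islet cells and above 0 in macrophages, and Fdps and Srebf2 lie below 0 in both.

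**Figure D4:**
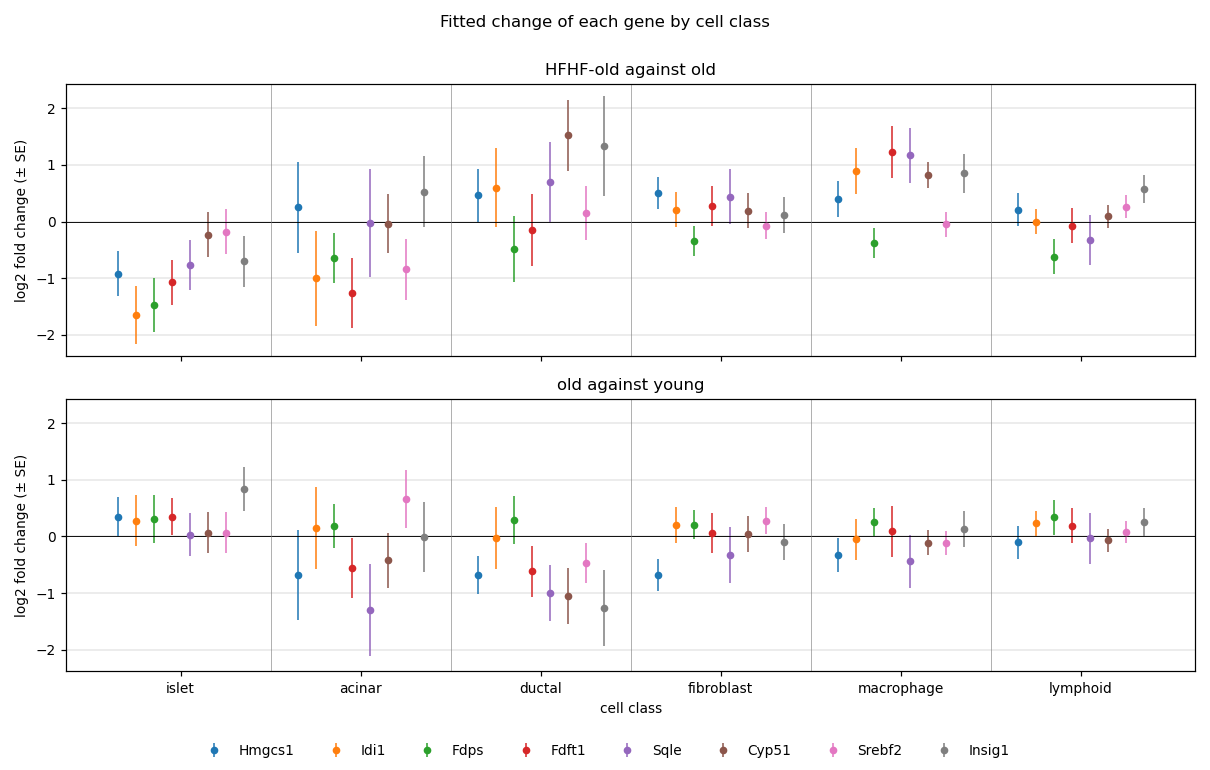
Fitted log2 fold change of each gene with its standard error from edgeR, for HFHF-old against old rats in the upper panel and old against young rats in the lower panel, by cell class. In the upper panel all 8 genes lie below 0 in islet cells and 6 of 8 above 0 in macrophages, and none of the 96 values was called.

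Old and young rats, of which the old rats also served as controls for the diet, showed no call of a member. In all 6 classes the count was 0 of 8, and the share of all genes called was 0.0625% in islet, 0.0271% in acinar, 1.26% in ductal, 0.0144% in fibroblast, 0% in macrophage and 0% in lymphoid cells. In macrophages and lymphoid cells 1089 and 748 genes had an unadjusted p under 0.05 in edgeR, and DESeq2 called 63 and 142 genes but no member in any class. The median change of the members was 0.30 in islet, -0.21 in acinar, -0.65 in ductal, 0.05 in fibroblast, -0.08 in macrophage and 0.13 in lymphoid cells. Without 1 rat in turn it ranged from 0.10 to 0.55 in islet cells (lowest without old rat 2, highest without old rat 1), from -0.96 to 0.32 in acinar cells (without old rat 2 and young rat 2), from -0.98 to -0.47 in ductal cells (without old rats 2 and 1), from -0.18 to 0.21 in fibroblasts (without old rat 2 and young rat 2), from -0.16 to 0.06 in macrophages (without young rats 1 and 2) and from -0.09 to 0.36 in lymphoid cells (without old rats 2 and 1). In islet cells all 8 fitted changes were positive, but scaling by library size alone gave a median of -0.17, since that scaling moved the median of all genes to -0.54. Beta cells gave 32.1% and 42.2% of islet UMIs in young rats, less than the 56.9% and 61.6% in old rats, and alpha cells gave 50.7% and 34.2% against 31.8% and 21.4%. Young rat 2 had 906 of its 1599 islet cells in a cluster led by Hbb and Pyy, where the old rats had 24 and 21, and the part of this make-up was not tested. Insig1 had the smallest p in islet cells, with 20.9 and 12.4 CPM in young and 24.6 and 17.9 in old rats, a change of 0.84 ± 0.39 and an adjusted p of 0.987 in edgeR. In ductal cells 7 of 8 members were negative, and Cyp51, with 30.6 and 27.4 in young and 9.32 and 17.9 in old rats, had a change of -1.05 ± 0.49 (adjusted p = 0.751 in edgeR). With doublets left out the ductal median was -0.19, but young rat 2 then kept only 4 ductal cells and was not in that fit. Fibroblast markers summed to 4411 and 6752 CPM in the ductal cells of young rats and 577 and 259 in old rats, with 9 of 10 above 0 in every rat, and their part was not tested. In fibroblasts Hmgcs1 had 26.6 and 24.0 in young and 16.4 and 15.7 in old rats, a change of -0.68 ± 0.28 with an adjusted p of 0.712 in edgeR. Hmgcs1 was the 1 member of 8 with both old rats below both young rats in fibroblasts, against 18.5% of 9666 genes. In ductal cells 4 of 8 lay so, against 17.2% of 7203 genes, and none lay above. Sqle and Idi1 lay so in islet CPM, against 43.8% of 5106. In T-like cells 4 of 8 lay above and none below, against 13.5% and 25.1% of 6800 genes. Macrophages had 2 below, against 23.5% of 8556. Acinar cells had 1 above and 1 below (14.2% and 22.1% of 7645). NK-like cells had 1 and 1 (11.1% and 21.3% of 8358) and all lymphoid cells 1 and 2 (10.4% and 21.6% of 7167). Dissociation response genes in fibroblasts summed to 8891 and 5565 CPM in young and 14721 and 13907 in old rats, and the 10 fibroblast markers to 37483 and 45648 against 24866 and 20874, and their part was not tested. Sqle in acinar cells had 4.82 and 4.44 in young and 0.987 and 3.09 in old rats, with a change of -1.30 ± 0.81. Islet markers summed to 6265 and 36890 CPM in the acinar cells of young rats and 95353 and 43593 in old rats, and their part was not tested. Macrophages gave Hmgcs1 as the member with the smallest p, at -0.33 ± 0.30 (adjusted p = 0.806 in edgeR), and lymphoid cells Fdps, at 0.34 ± 0.31 (adjusted p = 0.993 in edgeR). Within lymphoid cells the members' median was 0.38 in T-like cells, with 8 of 8 positive, and 0.01 in NK-like cells, with 4 of 8. T markers summed to 743 and 711 CPM in the lymphoid cells of young rats and 1918 and 1958 in old rats. NK markers summed to 6575 and 7344 against 4453 and 4912, and the part of this make-up was not tested. The difference of the age comparison between classes passed an adjusted p of 0.05 for none of the 8 genes and for 0.136% of all genes.

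Other genes of cholesterol and lipid metabolism gave no call either. There were 47 genes in 4 lists, covering the other cholesterol synthesis enzymes, sterol sensing and uptake of low-density lipoprotein, cholesterol storage and efflux, and fatty acid synthesis. None of those tested was called in any of the 12 comparisons within classes. Not all passed the filter on low counts. In this order 7 of 15, 10 of 12, 8 of 11 and 2 of 9 were tested in acinar cells, and 10, 10, 9 and 7 in ductal cells. The 15 other synthesis enzymes went with the members in islet cells, where none of the 15 had a positive change in HFHF-old against old rats and the median was -0.48. They did not go with them in macrophages, where 7 of 15 were positive with a median of -0.07. Sterol sensing and uptake genes had medians of 0.20 in islet cells and 0.10 in macrophages, with 8 and 7 of 11 tested genes positive. Storage and efflux genes, among them the sterol transporters that macrophages use to export cholesterol, had a median of 0.17 in macrophages with 8 of 11 positive. Fatty acid synthesis genes, which answer mainly to SREBP-1, had a median of 0.26 in macrophages with 7 of 8 positive and of 0.03 in islet cells.

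Over the 35 sums of a class in a rat, 6 members had a mean of at least 20 CPM and were compared with the 8 genes as a whole. The Pearson correlation of log2(CPM + 1) with the mean of the 8 standardized members was 0.93 for Hmgcs1, 0.91 for Fdps and Cyp51, 0.83 for Srebf2, 0.79 for Idi1 and 0.65 for Insig1, each member being part of that mean. Among the 6598 genes with a mean of at least 20 CPM, those outside the members with the most similar pattern were Pdhb at 0.93, Timm9, Prpf19 and Nfyb at 0.91 and Atxn7l3b, Suclg1, Lrif1 and Ube2d1 at 0.90. Pdhb and Suclg1 encode mitochondrial enzymes, Timm9 a mitochondrial import chaperone, Prpf19 a splicing factor, Ube2d1 a ubiquitin-conjugating enzyme and Nfyb a subunit of NF-Y, which binds CCAAT boxes. The sums share libraries, depth and the share taken by hormones and digestive enzymes, and those of HFHF-old rat 2 held only 101005 UMIs in islet and 270380 in acinar cells. After the class means were removed these 8 genes had correlations between 0.68 and 0.83. They were picked for their high correlation over the same sums, so these values are no separate support for a link. The share of all genes at such values was not counted. For the members the values after removal of the class means were 0.87 for Insig1, 0.86 for Hmgcs1, 0.82 for Cyp51, 0.81 for Fdps, 0.73 for Idi1 and 0.51 for Srebf2.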

How the data were processed

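Single-cell libraries of 6 rats were analysed, 2 per group by their titles. The deposited counts of UMIs per gene and barcode were made by the authors with Cell Ranger from 10x Genomics 3' libraries (chemistry v3.1). For Cell Ranger the file headers name version 5.0.0 and the study's methods another. The build was Rnor_6.0 per the labels. Counting per gene at the transcript's end does not divide isoforms.

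Barcodes with under 200 genes, over 25% mitochondrial UMIs or in the top 1% of gene number were left out, by the thresholds of the study's methods, which here left fewer cells than the study states. Cells were clustered with leidenalg 0.10.2 at resolution 1 (10 principal components, 15 neighbours), with 66 genes held out, the 8 members among them. Clusters were named from fixed markers, and 10530 cells in unnamed clusters were not used. Among these, 2665 cells with islet markers came almost wholly from young rat 2. Doublets, 8401 barcodes, were left out only in an alternative. UMIs were summed per class and rat, and sums of under 10 cells were left out. edgeR 4.0.16 (TMM, filterByExpr, quasi-likelihood) was fitted to all rats of a class, with 3 residual degrees of freedom, or 2 in ductal cells, and p-values were adjusted over all genes tested by Benjamini-Hochberg. A standard error is the size of a log2 fold change over the root of its F. DESeq2 1.42.0, other scalings, filters and cell choices were alternatives. The fit was also run on counts simulated from the means, library sizes and dispersions of the data, and the outcome is not reported here. Intervals and floors cover counting error only. Nothing says more of replicates than that they are separate rats.

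The members and gene lists were chosen with earlier results of these data known. A fold change was to be given for members called and otherwise for the member with the smallest p, and in islet cells and macrophages, a choice made after the values were seen, for all 8. The 8 most similar genes were taken by correlation with the standardized members among genes with a mean of at least 20 CPM. Classes and hormone types were described without a test, since they come from the same cells.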

Additional observations from a re-analysis of the deposited data

How the results depend on the processing

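No member was called in 209 of 211 recomputed counts over the 12 comparisons within classes and the difference between classes. In islet cells, HFHF-old against old, the count was 1, Idi1 in both, without young rat 1 (adjusted p = 0.0295 in edgeR) and without young rat 2 (adjusted p = 0.0171 in edgeR), with counts without 1 rat ranging from 0 to 1 and Idi1's adjusted p over all alternatives from 0.0171 to 0.999. Without young rat 2 the calls over all genes were also the most of any alternative for this comparison, and the cause was not tested. Scaling by library size alone reversed Srebf2 and Cyp51 in islet cells, to 0.45 and 0.27, and Srebf2 in macrophages, to 0.13. Cyp51 in islet cells was also reversed, to 0.02 with clusters of 1 library counted and to 0.03 with islet cells taken by transcript share. In macrophages Srebf2 was reversed to 0.08 without old rat 2, 0.03 without HFHF-old rat 2 and 0.02 with cells under 2000 UMIs left out, and without HFHF-old rat 1 Insig1 and Fdft1 were reversed to -0.06 and -0.49. Without 1 rat in turn these 3 ranged from -0.19 to 0.08, from -0.06 to 1.16 and from -0.49 to 1.61. Fdps in lymphoid cells, old against young, was reversed to -0.03 without old rat 2 and reached 0.69 without young rat 2. Of the recomputed folds of named members, 431 kept direction and call, 11 were reversed and 2, those of Idi1, passed the threshold. The summed level moved beyond its spread only with hormone and acinar genes out of the totals, to 666 in islet and 139 in acinar cells.

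Counts over all genes moved more, in 101 of 209 cases by over 1.5 times. For HFHF-old against old they ranged over the alternatives from 0 to 185 in islet (4 as reported), 0 to 130 in acinar (4), 0 to 216 in ductal (40), 0 to 530 in fibroblast (0), 0 to 21 in macrophage (0) and 0 to 235 in lymphoid cells (0). For old against young they ranged from 0 to 173 (8), 0 to 113 (2), 0 to 341 (126), 0 to 576 (2), 0 to 63 (0) and 0 to 184 (0). The members' median kept its sign in 18 of 18 alternatives in islet cells, from -2.40 to -0.32, in 16 of 17 in macrophages, 16 of 18 in acinar (-3.30 to 0.40), 15 of 15 in ductal, 15 of 17 in fibroblast (-0.08 to 0.45) and 17 of 19 in lymphoid cells (-0.19 to 0.42). The values of -2.40 and -3.30 include fitted values of members without a UMI and are no bounds. For old against young the sign was kept in 17 of 18, 16 of 17, 16 of 18, 16 of 16, 15 of 17 and 18 of 19.

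With the replicate number as a block, 68 genes were called in islet and 97 in acinar cells for HFHF-old against old, and 0 members in any class. The numbers are not known to pair the rats, and correlations of same-numbered deviations ran from -0.09 to 0.29. The legacy quasi-likelihood method, listed as an alternative, is the default of the installed edgeR, so the newer method was run instead, a choice made after the data were seen. Without HFHF-old rat 1 no HFHF-old ductal sum was left, and no fold is given for Idi1 and Insig1 in islet and Fdft1 in acinar cells, which then had no UMI in the group. HFHF-old rat 2 gave only 11 islet cells.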
